A study of Mus musculus with 14 samples.

Results

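The nuclear genes for subunits of the mitochondrial respiratory chain were followed across 7 pools of neurons from the mouse medial vestibular nucleus. The set holds every gene whose array symbol begins with Nduf, Uqcr, Cox4, Cox5, Cox6, Cox7, Cox8 or Atp5, together with Sdha, Sdhb, Sdhc, Sdhd, Cyc1 and Cycs, and without the assembly factors whose names begin with Ndufaf or Sdhaf. It came to 81 of the 16244 genes represented, each by the probe set with the highest mean over 14 arrays. By name, 33 belong to complex I, 4 to complex II, 9 to complex III, 1 is cytochrome c, 17 belong to complex IV and 17 to complex V. Of these, 69 (85.2%) reached a mean log2 signal of 5 in at least 1 pool, against 4409 of all genes (27.1%), and a gene that met this limit is called kept below. The subunits encoded by mitochondrial DNA were not analysed here.

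The study took single neurons from a brainstem nucleus that handles head motion signals, in C57BL/6 mice, 24 to 32 days old, that carried the YFP-16, GIN or GlyT2-13 transgene. Their fluorescent reporters are driven by promoters of Thy1, Gad1 and Slc6a5, so only cells in which such a transgene was active could be picked by it. Amplified cDNA of cells sorted into a type by their transcripts was pooled, which gave the excitatory pools E1 and E2 and the inhibitory pools I1a, I1b, I2, I3a and I3b, with all 3 lines named for every pool; the type E3 was not analysed here. Each type is 1 pool read on 2 arrays, the number of cells per pool was not given in the sources used here, and the 2 arrays differ by technical error alone.

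The respiratory chain sits in the inner mitochondrial membrane. Complexes I and II pass electrons from NADH and succinate to ubiquinone, complex III passes them on to cytochrome c, and complex IV hands them to oxygen, while complex V, the ATP synthase, uses the proton gradient to make ATP. Neurons that fire fast and steadily, as many vestibular neurons do, draw most of their ATP from this chain. Several subunits come in a ubiquitous form and in forms restricted to muscle, testis, lung or cells short of oxygen.

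Promoters of respiratory chain genes are known to hold sites for the nuclear respiratory factor NRF-1, for the ETS factor GABP and for YY1, so these letters were looked for from 250 bases before to 50 bases after the start of each gene, on both strands. RefSeq (GRCm38.p6) gave a promoter for 65 of the 81 genes, counted here whether kept or not. The kept genes set beside them include the kept members, so the sets overlap and differ in their filter. The NRF-1 core GCGCATGC stood in 10 of them (15.38%), against 6.91% of the 3587 kept genes with a promoter and 3.05% of all 27025 genes with one. The ETS core CCGGAAG stood in 17 (26.15%), against 19.51% of kept genes and 9.93% of all. The YY1 core AAGATGGC stood in 9 (13.85%), against 5.80% of kept genes and 3.19% of all. At least 1 of the 3 was found in 30 of the 65 (46.15%), against 28.99% of kept genes and 14.89% of all. An ETS and a YY1 core can overlap by their shared AAG, and GCGCATGCGC reads the NRF-1 core on both strands at once.

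The 150 bases before the start are printed for 4 genes with the NRF-1 core there whose values are given below, and for Cox7c and Ndufa4, complex IV and complex I genes by name that were among the most variable and had none of the 3 words in their window. Each runs 5′ to 3′ toward the start, and capitals mark the NRF-1 core.
Cycs, chr6:50566570-50566719, minus strand: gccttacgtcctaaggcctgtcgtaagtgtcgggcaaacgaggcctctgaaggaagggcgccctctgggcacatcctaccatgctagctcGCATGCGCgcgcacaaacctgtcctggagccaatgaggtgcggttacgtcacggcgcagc
Atp5g2, chr15:102671048-102671197, minus strand: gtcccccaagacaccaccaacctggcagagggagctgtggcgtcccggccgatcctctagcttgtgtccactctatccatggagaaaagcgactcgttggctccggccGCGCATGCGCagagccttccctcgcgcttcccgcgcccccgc
Atp5k, chr5:108434400-108434549, minus strand: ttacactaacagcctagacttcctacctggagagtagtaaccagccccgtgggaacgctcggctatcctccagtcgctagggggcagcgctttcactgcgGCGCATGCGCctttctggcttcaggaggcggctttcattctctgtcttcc
Ndufa6, chr15:82354292-82354441, minus strand: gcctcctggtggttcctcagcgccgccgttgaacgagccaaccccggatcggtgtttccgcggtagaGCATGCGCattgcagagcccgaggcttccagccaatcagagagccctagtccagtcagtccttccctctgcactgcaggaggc
Cox7c, chr13:86046796-86046945, minus strand: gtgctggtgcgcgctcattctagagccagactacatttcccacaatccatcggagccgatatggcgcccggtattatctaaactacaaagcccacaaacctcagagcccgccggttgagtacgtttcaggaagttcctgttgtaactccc
Ndufa4, chr6:11907451-11907600, minus strand: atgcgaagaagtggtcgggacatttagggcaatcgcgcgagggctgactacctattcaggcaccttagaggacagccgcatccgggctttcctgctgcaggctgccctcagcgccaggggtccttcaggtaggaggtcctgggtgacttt
A match is a string of letters and not a shown binding site. In Cycs the core begins at position -60 from the start, on the opposite strand, and in Ndufa6 it begins at -83. In Atp5g2 and Atp5k the overlapping cores begin at -42 and -50.

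The scale ran from a floor of 2.39 to 15.9 log2 units, and 54.0% to 56.7% of probe sets on each array lay within 0.1 of the floor. Across the kept respiratory chain genes, arrays of the same pool correlated at r = 0.997 to 0.998 and arrays of different pools at 0.979 to 0.997. Over all kept genes the same ranges were 0.982 to 0.992 and 0.847 to 0.960; genes are not independent, so no p is given. Of the marker lists, all 3 neuronal genes on the arrays were kept (Snap25, Syt1 and Rbfox3), none of 5 astrocyte, 4 microglial or 3 endothelial genes was, and 2 of 5 oligodendrocyte genes were. The oligodendrocyte gene Mbp read 5.50 in I1b and 6.20 in I3a, against 2.43 to 3.43 in the other pools, and Cnp read 6.62 in I1b and 9.14 in I3a, against 4.25 to 5.49. Mog, Mag and Mobp stayed at 2.97 or below in every pool. The astrocyte gene Gja1 read 4.19 in I3a, under the limit of 5, against 2.40 to 2.66 in the other pools. Gfap, Aqp4, Aldh1l1 and Slc1a3 stayed at 2.45 or below in every pool. In pooled samples, fewer cells with a transcript and less of it per cell cannot be told apart.

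Most respiratory chain genes were read well above the floor in every pool, and 8 of the 12 genes that fell short were tissue-restricted or induced forms. Complex I had 31 of 33 genes kept, complex II 3 of 4, complex III 8 of 9, complex IV 10 of 17 and complex V 16 of 17, and Cycs was kept. The 12 genes below the limit were Ndufa4l2, Ndufb4, Sdhc, Uqcrq, Cox4i2, Cox6a2, Cox6b2, Cox7a1, Cox7b2, Cox8b, Cox8c and Atp5g1. Sdhc, a membrane anchor of succinate dehydrogenase, lay just under it, at 4.38 in E2 to 4.86 in I2, while Cox8a, the ubiquitous form of a small complex IV subunit, lay just at it, at 4.76 in I1a to 5.06 in E2. Ndufb4 was at the floor by its own probe set, but a probe set shared with the similar genes Ndufb4b and Ndufb4c read 9.85 in I1a to 10.21 in I1b. In all, 9 probe sets that members share with other genes were left out.

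For the isoform pairs of Cox4, Cox6a, Cox6b, Cox7a and Ndufa4, the ubiquitous form was read above the limit in all 7 pools and the restricted form below it in all 7, and I2 stood out for Cox6a2. Cox6a1, the form of this complex IV subunit found in most tissues, had pool means of 14.20 in I1a to 14.48 in I1b. Its heart and skeletal muscle counterpart Cox6a2 (chromosome 7, 128205435 to 128206366 of GRCm38.p6) read 4.84 and 5.08 on the I2 arrays. It read 2.39 and 2.39 in E1, 2.82 and 2.62 in E2, 2.51 and 2.39 in I1a, 2.44 and 3.23 on the I1b arrays, and the I3a arrays read 2.39 and 3.05, the I3b arrays 2.68 and 3.35. Both I2 arrays thus lay above all 12 others, although the other Cox6a2 probe set stayed at 2.64 or below in every pool, so the higher value rests on 1 probe set near the floor and was not tested.

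Cox4i1, the ubiquitous regulatory subunit of complex IV, had pool means of 9.38 in I3b to 9.87 in I1b, while Cox4i2, its lung and low-oxygen form, stayed at 2.45 or below. Cox7a2 and Cox6b1 read 13.36 to 13.73 and 14.18 to 14.42, while Cox7a1, the muscle form of the one, stayed at 3.61 or below and Cox6b2, the testis form of the other, at 2.45 or below. Ndufa4l2, a Ndufa4 relative induced by low oxygen, stayed at 2.46 or below, Cox8b at 3.19 or below and Cox8c at 3.36 or below. Levels of different probe sets do not measure which transcript is more abundant, and these values say only which were above the floor.

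**Figure D1:**
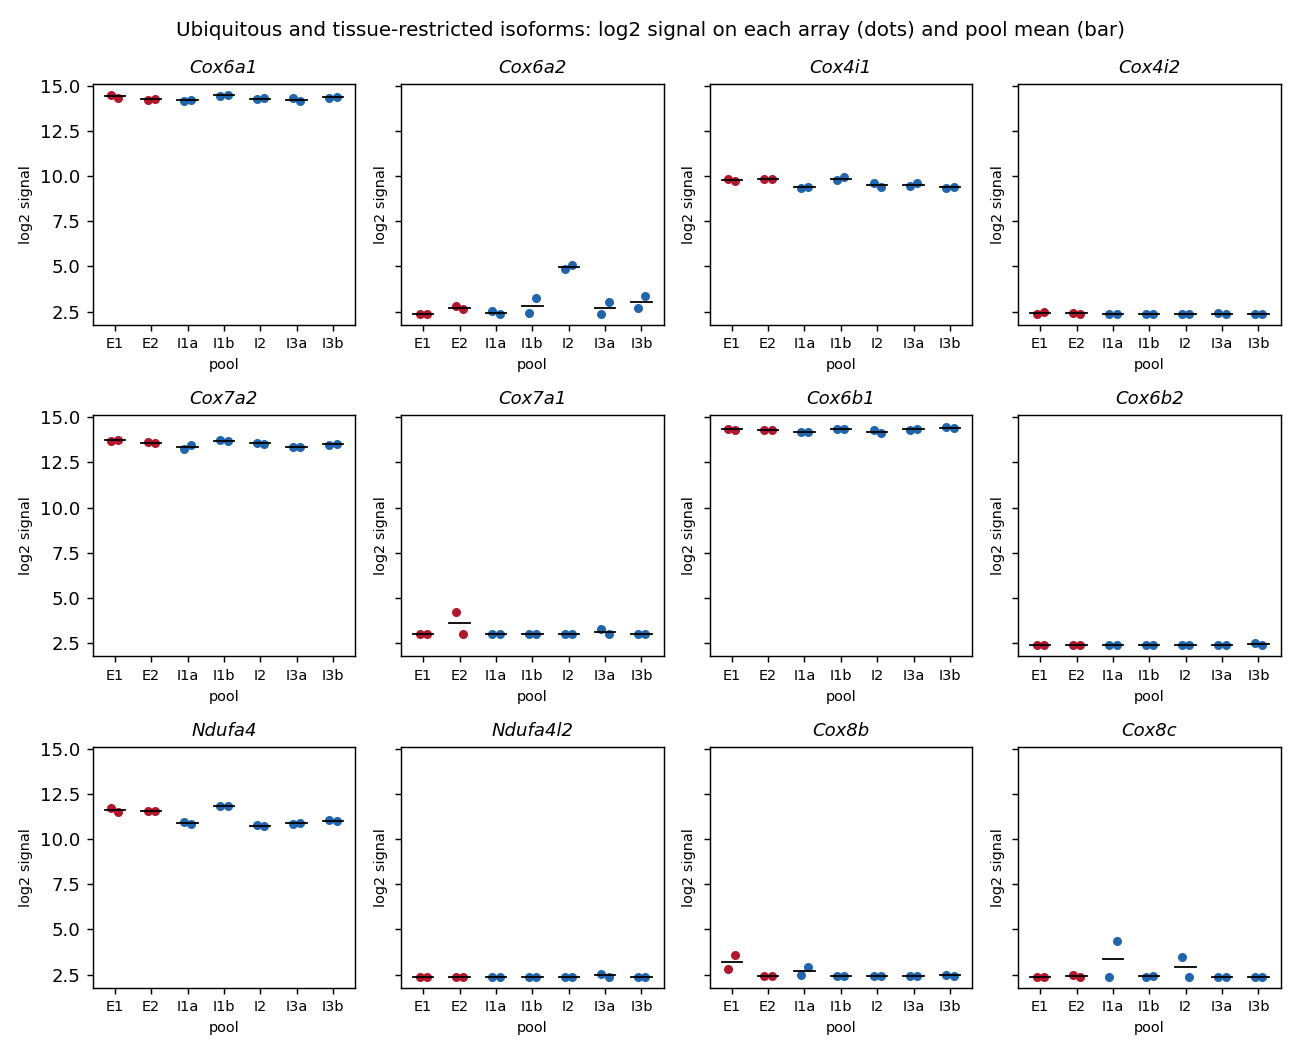
Log2 signal of 12 respiratory chain genes on each array (dots, red for E pools and blue for I pools) with the mean of the 2 arrays of each pool (bar), on 1 shared vertical axis. Cox4i1, Cox6a1, Cox6b1, Cox7a2 and Ndufa4 lie far above the floor of 2.39 in all 7 pools, and the restricted forms have pool means of 3.61 or below except Cox6a2 in I2 at 4.96, with single arrays of Cox7a1 in E2 at 4.24 and of Cox8c in I1a at 4.34.

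Between pools the respiratory chain genes moved little. The range over the 7 pool means, highest minus lowest, had a median of 0.504 log2 units over the 69 kept genes (quartiles 0.365 and 0.645), against 1.126 over all 4409 kept genes. Only Cox7c, Atp5mpl, Atp5b and Ndufa4 had a range of 1 or more, which is 5.8% of the kept members, against 57.22% of all kept genes. The median difference between the 2 arrays of a pool was 0.106 for the members and 0.153 for all.

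The members were bright, with a median level of 10.3 against 6.5 for all kept genes, so the ranges were also read within bands of signal. Among genes with a mean of 5 to 8 the median range was 0.509 for 14 members and 1.133 for all, and between 8 and 10 it was 0.600 for 18 members and 0.979 for all. Between 10 and 12 it was 0.585 for 22 members and 0.793 for all, and from 12 upward 0.363 for 14 members and 0.555 for all. The narrower range of the members was thus seen in each of these bands, with the smallest gap among the brightest genes.

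**Figure D2:**
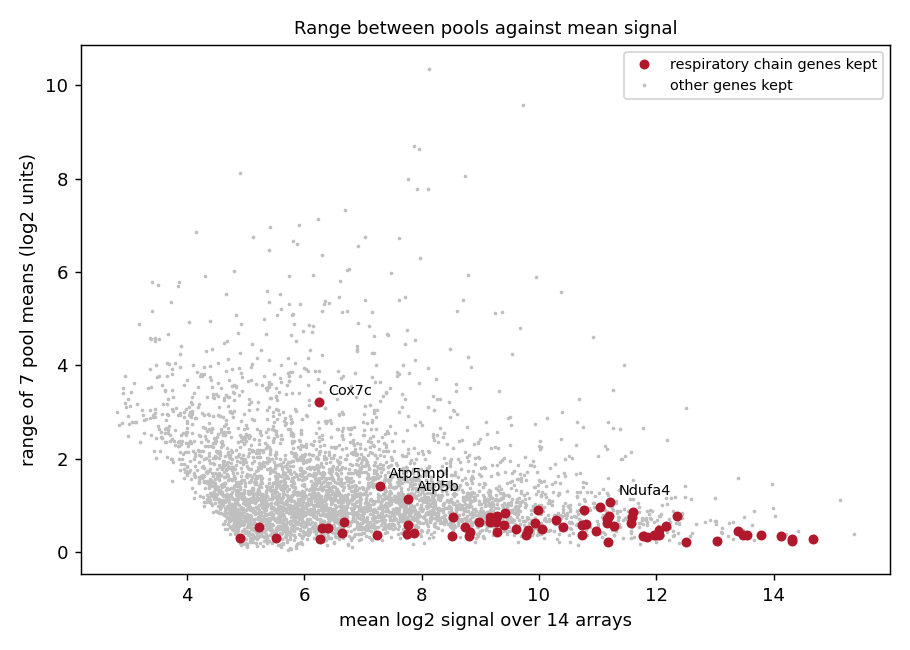
Range over the 7 pool means (log2 units) against the mean log2 signal over 14 arrays, for 69 kept respiratory chain genes (red) and the other kept genes (grey). All but Cox7c, Atp5mpl, Atp5b and Ndufa4 lie below a range of 1.

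By complex the median range was 0.504 for complex I, 0.623 for complex II, 0.496 for complex III, 0.320 for complex IV and 0.612 for complex V. Complex IV thus had the lowest median range, although it holds Cox7c, the member with the widest. Its genes were also the brightest, with a median level of 12.54, against 8.98 to 10.6 for the other complexes. Ndufa4, now known as a complex IV subunit and with a range of 1.07, was counted by name under complex I. Of related lists, the enzymes of the tricarboxylic acid cycle had a median range of 0.545 over 12 kept genes, the mitochondrial ribosomal proteins 0.818 over 33, the glycolytic enzymes 0.840 over 11, the respiratory chain assembly factors 0.974 over 18 and the nuclear regulators of mitochondria 1.203 over 6. Those lists hold dimmer genes in part, with a median level of 6.43 for the assembly factors against 10.3 for the subunits.

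The pool that read lowest was most often I2. It had the lowest mean of the 7 pools for 26 of 69 members, against 17.9% of all kept genes, and the highest mean for 2, although it was the highest pool for 29.2% of all. After quantile normalization I2 was lowest for 35 members and after centring of arrays for 39, against 26.6% and 26.9% of all genes. Complex V genes were lowest in I2 in 10 of 16 cases and complex I genes in 12 of 31. The pool I1b was highest for 23 members as deposited (33.3%, against 13.5% of all), but for 9 and 10 after the same scalings, and I1a was lowest for 23 but for 2 and 3 after them, so the places of these pools depend on the scaling between arrays.

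Averaged over the 69 genes after each gene was centred on its own mean, the pools lay at 0.07 in E1, 0.0049 in E2, -0.094 in I1a, 0.15 in I1b, -0.11 in I2, -0.0055 in I3a and -0.0165 in I3b. Over all kept genes I2 lay at 0.12, I1b at 0.077 and I1a at -0.17. The I2 pool was the one in which the members and all genes lay on opposite sides by more than 0.1 each. Complex V had its lowest mean there, -0.18, and complex I likewise, -0.14, whereas complex II lay at 0.049 and complex III at 0.015 in I2.

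**Figure D3:**
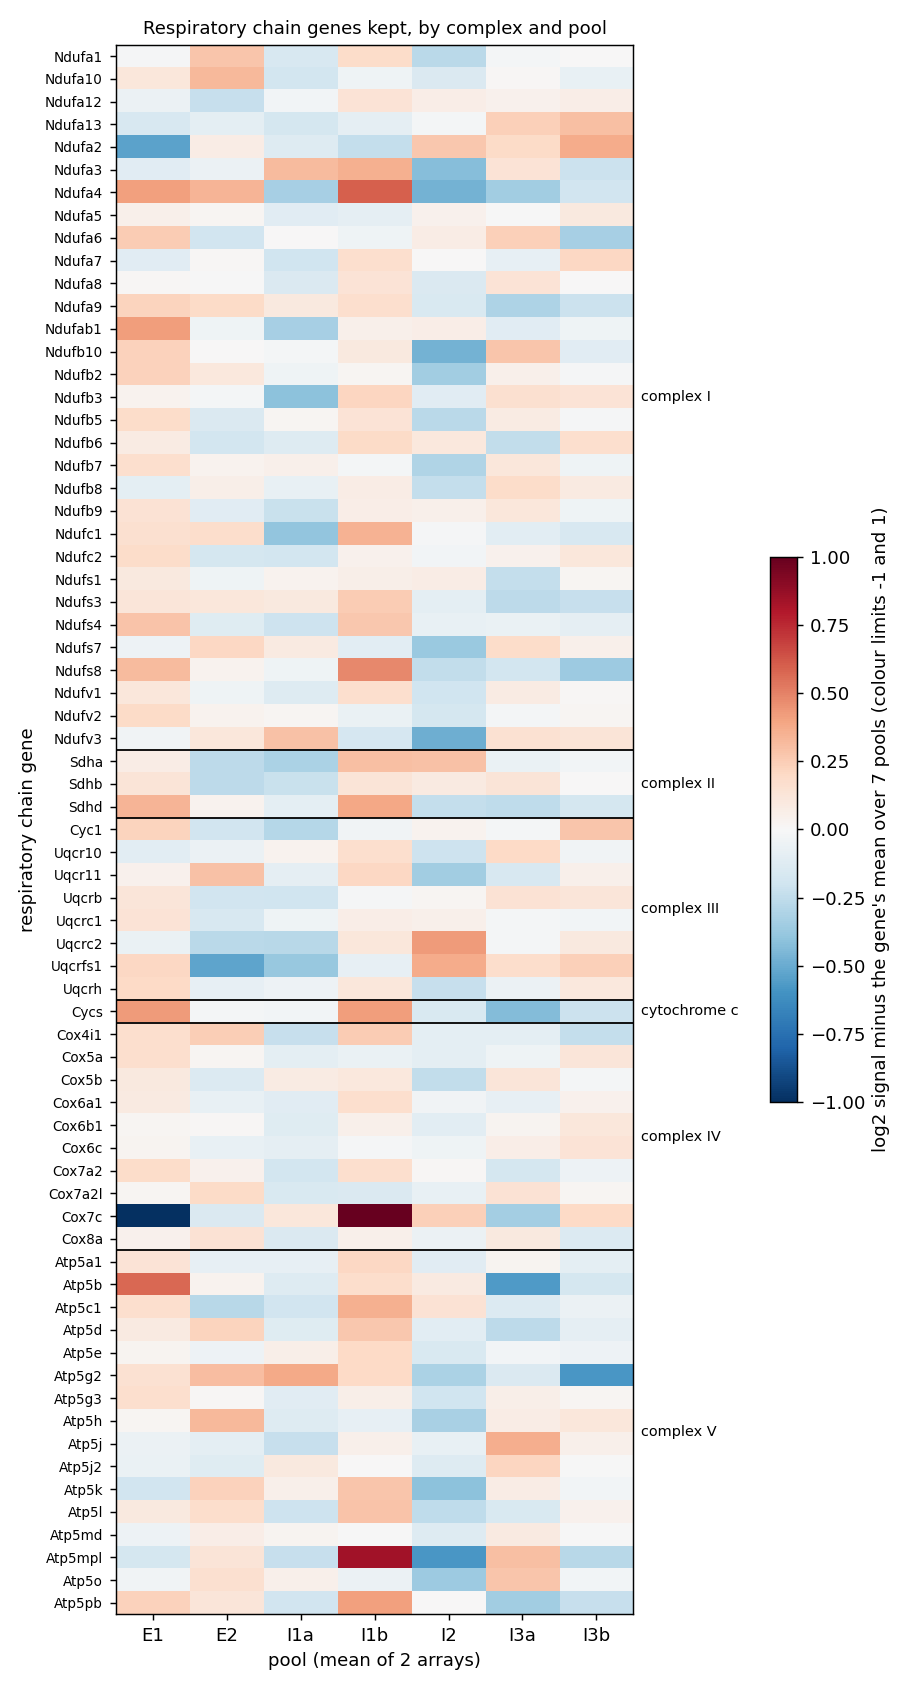
Pool means of the 69 kept respiratory chain genes, each minus the gene's own mean over the 7 pools (log2 units, colours limited to -1 and 1), with genes in rows by complex and pools in columns. Most cells are pale, the I2 column is blue for many complex I and complex V genes, and Cox7c passes the colour limits in E1 and I1b.

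Complex I takes electrons from NADH. Ndufa4 (chromosome 6, 11900372 to 11907450 of GRCm38.p6), named for complex I but now known as a complex IV subunit, had the widest range of the 31, 1.07. It read 11.71 and 11.53 in E1, 11.53 and 11.57 in E2, 10.93 and 10.82 in I1a, 11.82 and 11.81 on the I1b arrays, 10.77 and 10.70 in I2, 10.85 and 10.89 in I3a and 11.07 and 10.98 in I3b. E1, E2 and I1b thus formed a high group, with every array at 11.53 or above, and the other 4 pools lay at 11.07 or below.

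Ndufa2, an accessory subunit, came next with a range of 0.91. It read 10.45 and 10.02 in E1, 10.89 and 10.80 in E2, 10.71 and 10.57 in I1a, 10.56 and 10.51 on the I1b arrays, 11.03 and 11.05 in I2, 10.94 and 10.99 in I3a and 11.11 and 11.18 in I3b. E1 was the lowest pool, and I2, I3a and I3b lay above all others. Core subunits that bind the flavin or the iron-sulphur clusters lay on both sides of the complex I median of 0.504. The ranges were 0.37 for Ndufv1, 0.37 for Ndufv2, 0.34 for Ndufs1, 0.57 for Ndufs7 and 0.84 for Ndufs8. Ndufa5 had the narrowest range of complex I, 0.21.

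Complex II is succinate dehydrogenase, which also works in the tricarboxylic acid cycle. Sdha, its flavoprotein, read 10.08 and 9.94 in E1, 9.64 and 9.69 in E2, 9.72 and 9.51 in I1a, 10.18 and 10.30 on the I1b arrays, 10.24 and 10.22 in I2, 9.82 and 9.91 in I3a and 9.84 and 9.97 in I3b. By this probe set it was highest in I1b and I2 and lowest in I1a and E2. The other kept Sdha probe set gave another order, with pool means of 9.58 in I2 to 9.98 in I3b, and 9.92 in E2. Sdhd, a membrane anchor, read 9.37 and 9.29 in E1 and 9.45 and 9.29 in I1b, above the 8.64 to 9.10 of the other 10 arrays. The iron-sulphur subunit Sdhb had pool means of 7.49 in E2 to 7.88 in I1b.

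In complex III, Uqcrfs1, the Rieske iron-sulphur protein (chromosome 13, 30540312 to 30545316 of GRCm38.p6), had the widest range, 0.90. It read 10.23 and 10.14 in E1, 9.48 and 9.42 in E2, 9.69 and 9.51 in I1a, 9.98 and 9.82 on the I1b arrays, 10.42 and 10.29 in I2, 10.23 and 10.08 in I3a and 10.24 and 10.18 in I3b. E2 and I1a were lowest, I1b came next, and the other 4 pools lay at 10.08 or above. Uqcrc2, a core protein, had its highest mean in I2, 11.59, and lay at 10.89 to 11.27 elsewhere. Cyc1, the cytochrome c1 subunit, ran between 10.99 in I1a and 11.55 in I3b.

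Cytochrome c itself, encoded by Cycs (chromosome 6, 50562563 to 50566569 of GRCm38.p6), carries electrons to complex IV. It read 12.02 and 12.05 in E1, 11.63 and 11.54 in E2, 11.63 and 11.53 in I1a, 11.95 and 12.09 on the I1b arrays, 11.46 and 11.45 in I2, 11.23 and 11.13 in I3a and 11.41 and 11.38 in I3b. E1 and I1b stood above all other arrays, and I3a stood below them.

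Complex IV, cytochrome c oxidase, held the gene with the widest range of all members. Cox7c, a small accessory subunit (chromosome 13, 86044798 to 86046795 of GRCm38.p6), read 5.24 and 4.0 in E1, 5.92 and 6.32 in E2, 6.12 and 6.62 in I1a, 7.83 and 7.81 on the I1b arrays, 6.35 and 6.64 in I2, 5.99 and 5.85 in I3a and 6.10 and 6.82 in I3b. I1b was the highest pool and E1 the lowest, and the E1 arrays differed by more than the arrays of any other pool. The other Cox7c probe set lay between 2.40 in E1 and 3.31 in E2, near the floor, and so could not check the range of 3.20. Without Cox7c, the widest range of complex IV was that of Cox4i1, 0.49, and Cox6b1 and Cox6c, at 0.23 each, were the steadiest.

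Complex V has a catalytic head and a proton-driven ring. Atp5mpl, a small proteolipid of the membrane part (chromosome 12, 111961374 to 111967009 of GRCm38.p6), read 7.21 and 7.03 in E1, 7.45 and 7.39 in E2, 7.06 and 7.06 in I1a, 8.18 and 8.10 on the I1b arrays, 6.78 and 6.65 in I2, 7.38 and 7.81 in I3a and 7.04 and 6.99 in I3b. I1b stood above every other array and I2 below every other array. Atp5b, the catalytic beta subunit (chromosome 10, 128083307 to 128090388 of GRCm38.p6), read 8.58 and 8.10 in E1, 7.85 and 7.76 in E2, 7.59 and 7.68 in I1a, 7.82 and 8.06 on the I1b arrays, 7.83 and 7.87 in I2, 7.11 and 7.28 in I3a and 7.46 and 7.72 in I3b. E1 was highest and I3a lowest. Its partner in the head, the alpha subunit Atp5a1, had a range of 0.33 and the c-ring gene Atp5g3 one of 0.37, while the c-ring gene Atp5g2 had one of 0.96.

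**Figure D4:**
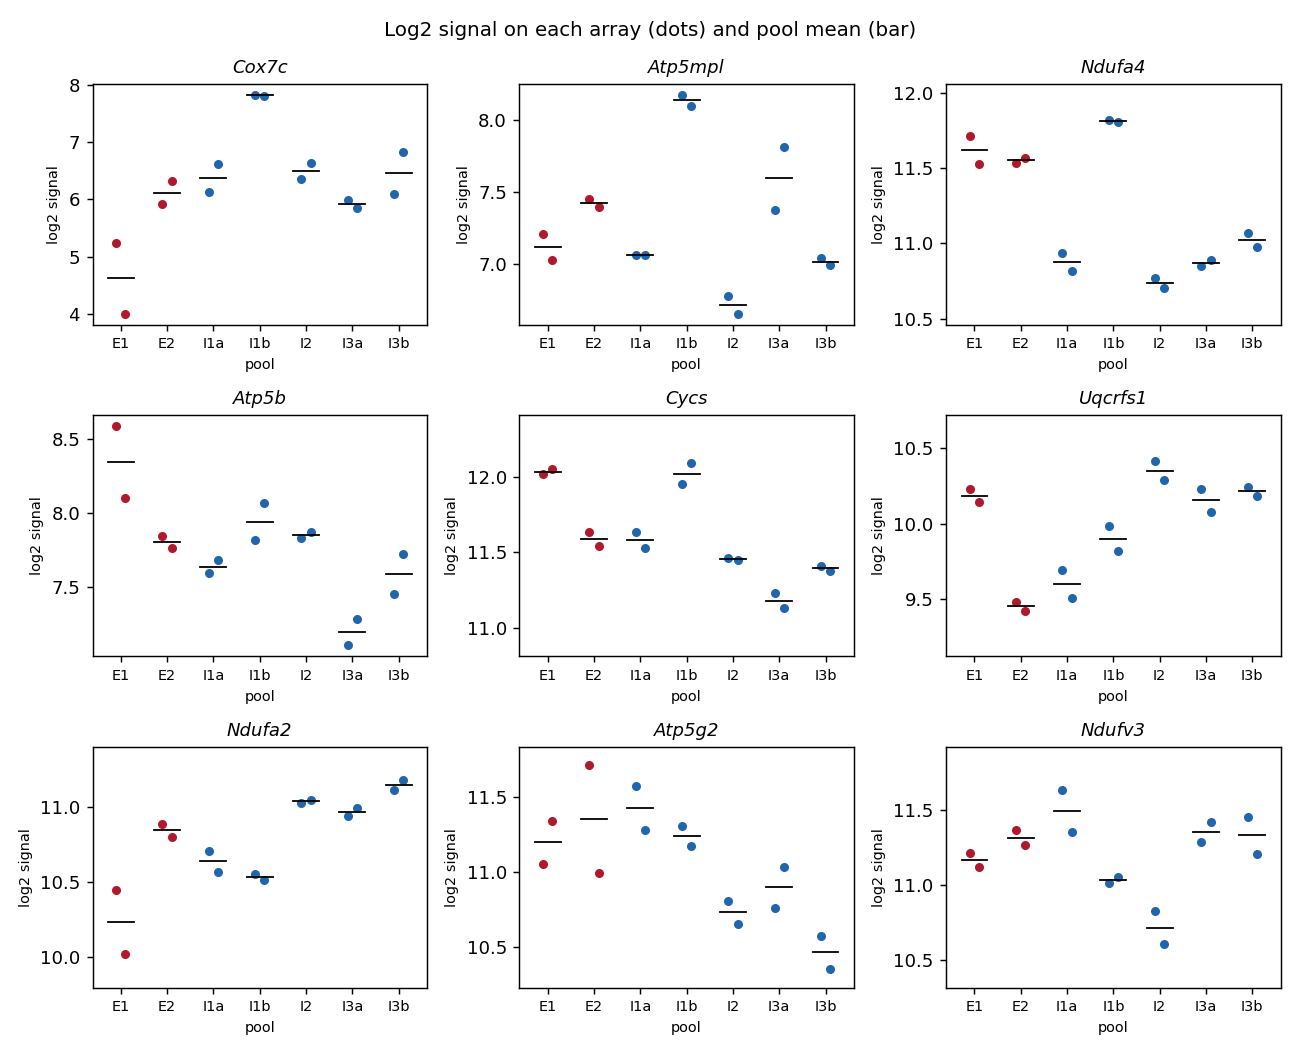
Log2 signal on each array (dots, red for E pools and blue for I pools) and the mean of the 2 arrays of each pool (bar) for 9 respiratory chain genes, each with its own vertical axis. Cox7c and Atp5mpl peak in I1b, Ndufa4 and Cycs are high in E1 and I1b, and Uqcrfs1 is lowest in E2.

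Whether excitatory and inhibitory neurons differ in these genes was asked by setting the 2 E pools against the 5 I pools. No respiratory chain gene was called, and 1 member differed by 1 log2 unit or more (1.45%, against 7.2% of all kept genes). The median difference was 0.04 for the 69 members and -0.01 for all kept genes. A positive difference was seen for 47 members (68.1%), against 49.3% of all kept genes. A call needed at least 1 log2 unit and a limma p under 0.05 after Benjamini-Hochberg adjustment. Of the members, 0 of 69 passed, with 0.0227% of all kept genes called, which is 1 gene. At an unadjusted p under 0.05 the counts were 0 members and 273 of all genes (6.2%). With the pool as a random block over 14 arrays, 6 genes and again 0 members were called.

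The 5 largest positive differences were those of Ndufa4, Atp5b, Atp5g2, Ndufa10 and Cox4i1. For Ndufa4 the E pools read 11.62 and 11.55, against 10.88, 11.81, 10.74, 10.87 and 11.02 in the I pools, with a difference of 0.52 (SE 0.29, adjusted p 0.780). The groups overlapped because I1b lay above both E pools. The other 4 ran between 0.43 for Atp5b and 0.29 for Cox4i1, with adjusted p of 0.780 to 0.809. The 5 largest negative differences were -1.25 for Cox7c (SE 0.56, adjusted p 0.753), -0.32 for Ndufa2, -0.23 each for Uqcrc2 and Uqcrfs1, and -0.20 for Ndufa12.

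For Cox7c the E pools read 4.62 and 6.12, against 6.37, 7.82, 6.50, 5.92 and 6.46 in the I pools, and E2 lay above I3a. Without E1 the Cox7c difference was -0.50, and Uqcrfs1 turned to 0.14 without E2. The pool means did not overlap for 4 members that read higher in the E pools, Ndufa10, Ndufa9, Ndufb2 and Ndufv2, with 5.99% of all kept genes doing so. They did not overlap for 1 that read lower, Ndufa12, with 6.19% of all genes doing so. Those 4 had differences of 0.16 to 0.30, and their share lies near that of all genes.

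The inhibitory pools were then compared by family, with I1a and I1b set against I3a and I3b in a fit over all 7 pools. Again no member was called, and 0.0% of all kept genes were. At an unadjusted p under 0.05 there were 2 members, Atp5g2 and Ndufa13, and 496 genes in all (11.2%). The median difference was 0.0011 for the members and -0.04 for all genes. It lay above 0 for 35 members (50.7%, against 46.2% of all genes) and below 0 for 34. A random block for the pool called 114 genes and 0 members.

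Atp5g2 encodes a c-ring subunit of complex V (chromosome 15, 102662868 to 102671047 of GRCm38.p6) and read 11.57 and 11.28 in I1a and 11.31 and 11.17 on the I1b arrays, against 10.76 and 11.03 in I3a and 10.58 and 10.35 in I3b. No I3 array reached an I1 array, and the difference of pool means was 0.65 (SE 0.21, adjusted p 0.375). With the mean of the gene's probe sets it was 0.22, but the other probe sets lay at 2.69 or below in every pool, near the floor, and so could not check it. Cycs had a difference of 0.52 (adjusted p 0.512), Ndufs8 0.49, Ndufs3 0.42 and Cox7c 0.91 (SE 0.67, adjusted p 0.677), the last 0.18 without I1b and 1.63 without I1a.

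On the other side were Ndufa2 with -0.47, Uqcrfs1 with -0.43, Ndufa13 with -0.41 (SE 0.14, adjusted p 0.378), Atp5j with -0.30 and Cyc1 with -0.29. Ndufa13, an accessory complex I subunit also studied as GRIM-19, read 11.84 to 11.99 on the 4 I1 arrays, against 12.18 to 12.39 on the 4 I3 arrays. Without overlap of pool means were 11 members that read higher in the I1 pools, with 16.9% of all kept genes, and 11 that read lower, with 23.0%. Both counts, at 11 of 69, were no larger a share than among all genes.

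The paired pools were compared on arrays, E1 with E2, I1a with I1b and I3a with I3b. Here the error is technical, so each p compares 2 pools of cDNA and not 2 cell types, and the number of genes called is correspondingly high. Since most member differences were smaller than 1 log2 unit, counts at an adjusted p under 0.05 with no size limit are given as well, a rule added after the data had been seen.

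E1 differed from E2 in many respiratory chain genes by small amounts. Of the 69 members, 18 were higher in E1 (26.1%) at an adjusted p under 0.05, with 16.4% of all kept genes higher, and 4 were lower (5.8%), with 11.2% of all lower. With the size limit, 1 member was called, Cox7c, with 7.39% of all genes called. The median difference was 0.10 for the members and 0.04 for all genes. After quantile normalization 18 members were higher, with 16.8% of all genes, and 6 were lower, with 15.4% of all. After centring of arrays 11 were higher, with 16% of all genes, and 5 were lower, with 14.7%, so the larger share of higher members was not seen after centring. Of the members that passed as deposited, 11 of the higher and all 4 of the lower passed under all 3 scalings. How large a share of all kept genes did so was not computed, so these counts are not read as a result about the members.

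Uqcrfs1 had the largest positive difference, with E1 arrays at 10.23 and 10.14, against 9.48 and 9.42 in E2, a difference of 0.73 (SE 0.095, adjusted p 0.000179). In complex III, Cyc1 (0.41), Uqcrb (0.31) and Uqcrh (0.28) were also higher, 4 of 8 genes. In complex II, Sdhb (0.39) and Sdha (0.34) were higher, 2 of 3, but the other Sdha probe set gave -0.12. After either other scaling 3 complex III genes and 1 complex II gene passed, all still higher in E1. Cycs was higher by 0.45 (SE 0.069, adjusted p 0.000604). In complex V, Atp5b (0.54), the gamma subunit Atp5c1 (0.44) and Atp5a1 (0.22) were higher, 3 of 16, and Atp5a1 did not pass after centring (adjusted p 0.192). The delta, epsilon and OSCP subunit genes of the same enzyme did not pass, with differences of -0.13 for Atp5d, 0.08 for Atp5e and -0.20 for Atp5o. Complex I had 7 of 31 higher, led by Ndufab1, the mitochondrial acyl carrier protein (0.46), and Ndufa6 (0.44), and complex IV had Cox5a (0.16). For Ndufab1 another probe set gave -0.40, but it read 4.01 in E1 and 4.42 in E2, under the limit of 5. For Ndufc2, with 0.36, another gave -0.15 and a further kept one gave 0.32. The direction thus depends on the probe set for these genes and Sdha, for Ndufab1 only by a dim probe set.

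The 4 genes lower in E1 were Cox7c, Ndufa2, Atp5k and Ndufa1. Cox7c differed by -1.50 (SE 0.35, adjusted p 0.00803), with the E1 arrays at 5.24 and 4.0, against 5.92 and 6.32 in E2. Without the lower E1 array the difference was -0.88 (adjusted p 0.0650) and without the higher E2 array -1.30 (adjusted p 0.0671), so the call needs both of these arrays. Ndufa2 differed by -0.61 (SE 0.11, adjusted p 0.00191), Atp5k, the e subunit of complex V, by -0.42 and Ndufa1 by -0.28. Ppargc1a, the coactivator PGC-1alpha that drives genes of this chain, was 1.33 higher in E1 (adjusted p 2.06e-05), and no other kept gene of the 6 nuclear regulators passed the size limit. Ldha, a lactate dehydrogenase gene, was lower in E1 (difference -2.16, adjusted p 9.80e-06), the 1 glycolytic gene called of 11 kept.

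I1a lay below I1b for 59 of 69 members, and so did most genes. It lay above I1b for 14.5% of members and 32.5% of all kept genes. The median difference was -0.20 for the members and -0.22 for all kept genes. At an adjusted p under 0.05, 30 members were lower in I1a (43.5%), with 34.2% of all genes lower, and 1 was higher, with 9.16% of all higher. With the size limit 2 members were called, both lower, with 13.1% of all genes called. Quantile normalization moved the median of all genes to 0.0083 and that of the members to 0.0155, and centring of arrays moved them to 0.026 and 0.044, so the general shift depends on the scaling. After quantile normalization 12 members were higher and 8 lower, with 19.6% and 22.8% of all genes, and after centring 8 were higher and 9 lower, with 18.7% and 22.0% of all.

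Under all 3 scalings, the deposited one included, 8 members were lower in I1a: Atp5c1, Atp5mpl, Atp5pb, Cox7c, Ndufa4, Ndufb3, Ndufc1 and Sdha. The share of all kept genes that passed under all 3 was not computed, so this count is not read as a result about the members. The called genes were Cox7c, with 6.12 and 6.62 in I1a, against 7.83 and 7.81 in I1b (difference -1.45, SE 0.35, adjusted p 0.00558), and Atp5mpl, with 7.06 and 7.06 in I1a, against 8.18 and 8.10 in I1b (difference -1.08, SE 0.14, adjusted p 0.000101). Atp5mpl differed by -0.79 after quantile normalization and by -0.83 after centring, under the size limit. Ndufa4 read 10.93 and 10.82 in I1a, against 11.82 and 11.81 in I1b, a difference of -0.94 (SE 0.074, adjusted p 2.81e-06) that became -0.68 after quantile normalization. Ndufc1, an accessory complex I subunit, differed by -0.75 and Sdha by -0.62. The other kept Sdha probe set gave -0.15, a smaller drop than the median of -0.22 over all kept genes. By that probe set Sdha did not lie below the general shift, so its place among the 8 depends on the probe set.

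The 1 member higher in I1a was Ndufv3, a small complex I subunit of the flavoprotein part, with 11.63 and 11.35 in I1a, against 11.01 and 11.05 in I1b. Its difference was 0.46 (SE 0.11, adjusted p 0.00587) and it passed under all 3 scalings. The 3 kept genes of complex II were all lower in I1a as deposited, and 1 of them, Sdha, after each scaling by the probe set used here. Complex III had 3 of 8 genes lower as deposited and none after either scaling. Of the 5 oligodendrocyte genes, Mbp and Cnp moved with this comparison, at 2.43 and 4.93 in I1a, against 5.50 and 6.62 in I1b. Mog, Mag and Mobp lay at 2.39 to 2.95 in both pools, near the floor. The part of the oligodendrocyte genes in the result was not tested.

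Outside the subunits, Ldha differed by -2.38 between I1a and I1b, Ndufaf2, an assembly factor of complex I, by -2.06, and the mitochondrial ribosomal protein genes Mrpl32 and Mrpl18 by -1.83 and -1.69, each called. These differences are as deposited, and in I1a Ndufaf2 read 4.14 and Mrpl32 3.44, under the limit of 5. No gene of the tricarboxylic acid cycle was called, although 6 of 12 kept were lower in I1a at an adjusted p under 0.05 as deposited, with 34.2% of all genes lower.

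I3a and I3b differed in fewer respiratory chain genes than the other pairs did by count. Of the 69 members, 4 were higher in I3a, with 9.75% of all kept genes higher, and 4 were lower, with 21.9% of all lower. None passed the size limit, with 9.91% of all genes called, and 12 members and 1809 genes in all had an unadjusted p under 0.05. The median difference was 0.0087 for the members and -0.09 for all genes. Quantile normalization moved the median of all genes to 0.031 and gave 17 higher and 2 lower members, with 17.4% and 18.5% of all genes. Centring gave 8 higher and 1 lower, with 15.5% and 18.6% of all, so the share of higher members lay above that of all genes after the one scaling and below it after the other.

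The 4 higher genes passed under all 3 scalings, and the share of all kept genes that did so was not computed. Atp5mpl read 7.38 and 7.81 in I3a, against 7.04 and 6.99 in I3b (difference 0.58, SE 0.14, adjusted p 0.00878). Ndufa6, an accessory complex I subunit, read 7.98 and 8.04 in I3a, against 7.42 and 7.47 in I3b (difference 0.56, SE 0.11, adjusted p 0.00287). Ndufb10 differed by 0.39 and Atp5j, the coupling factor F6 of complex V, by 0.32.

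Of the 4 lower genes, Ndufb6 (difference -0.42, SE 0.076, adjusted p 0.00159) passed under all 3 scalings, with 13.15 and 13.15 in I3a, against 13.53 and 13.61 in I3b. Cyc1 (-0.30), Cycs (-0.22) and Cox5a (-0.16) passed as deposited. Of the 5 oligodendrocyte markers, Mbp and Cnp read 6.20 and 9.14 in I3a, against 3.43 and 5.14 in I3b. Mog, Mag and Mobp lay at 2.97 or below in both pools. The astrocyte gene Gja1 read 4.19 in I3a, against 2.41 in I3b, and the other astrocyte genes lay at 2.45 or below in both. The part of these marker genes in the differences was not tested. Ttc19, an assembly factor of complex III, differed by -1.55, Cox15, which makes heme a for complex IV, by 1.20 and Mrpl44 by 1.01, each called. Cox15 read 3.94 in I3b, under the limit of 5.

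**Figure D5:**
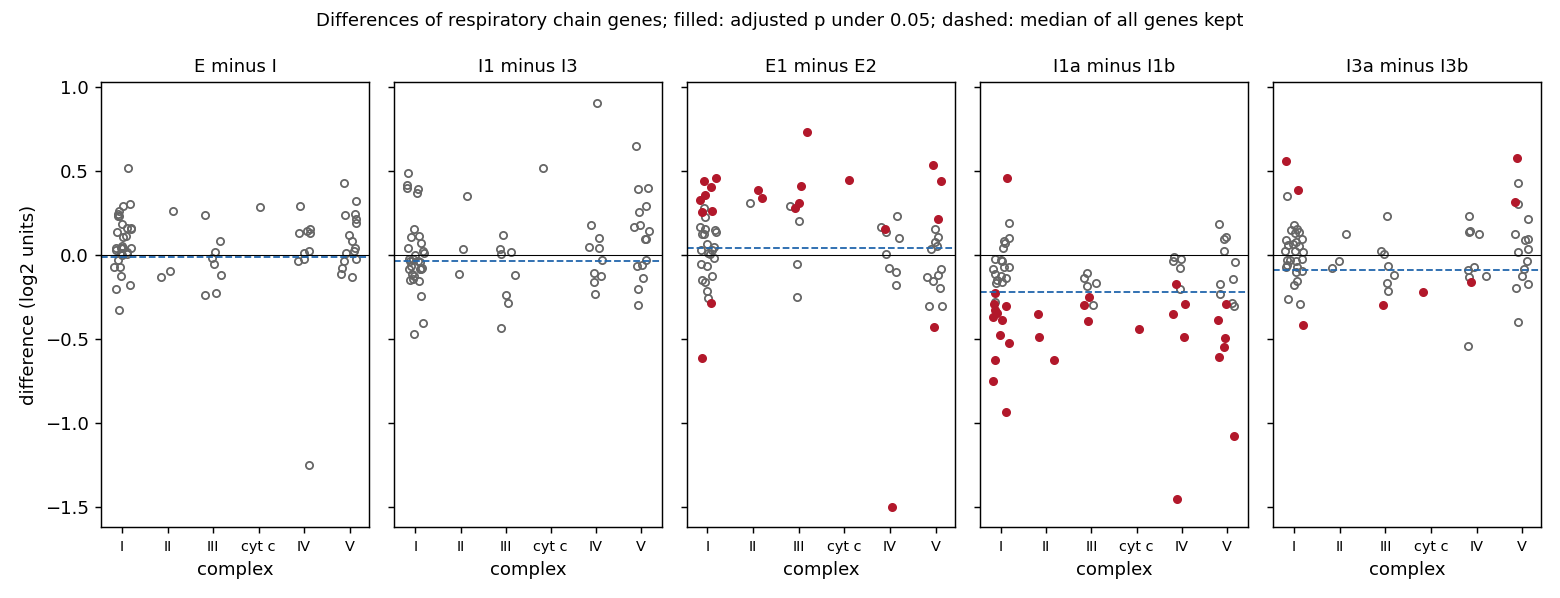
Difference of each kept respiratory chain gene (log2 units) in 5 comparisons, by complex, with filled points for an adjusted p under 0.05 and a dashed line at the median of all kept genes. No point is filled in E minus I or I1 minus I3, 22 are filled in E1 minus E2, 31 in I1a minus I1b and 8 in I3a minus I3b.

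Genes read by several probe sets gave a check on single values. Of the members, 45 had more than 1 probe set, and for 32 at least 2 probe sets were kept. The probe sets of a gene differed in sign for 7 of the 32 in E minus I, 10 in I1 minus I3, 11 in E1 minus E2, 8 in I1a minus I1b and 9 in I3a minus I3b. They differed in sign and by at least 0.5 for Ndufab1 and Uqcr10 in E minus I, for Cox7a2l, Ndufab1 and Ndufc2 in E1 minus E2, and for Uqcr10 in I3a minus I3b. Atp5mpl, Ndufa4, Ndufa2, Atp5b and Uqcrfs1 had 1 probe set each, so their values have no such check.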

How the data were processed

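The authors deposited log2 signals per probe set, made with affy and GCRMA per the submitters' processing notes, whose versions are not given in the sources used here; GCRMA corrects background, normalizes arrays and summarises probes. The log base was taken from the values. Genes were named by the platform annotation (24034 probe sets with 1 symbol, of 30843) and checked against RefSeq by Entrez identifier. Members and lists were chosen with earlier results of these data known.

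A gene was kept at a pool mean of 5 or more. E against I and I1 against I3 were fitted on pool means, the other comparisons on 14 arrays, with limma 3.58.1 in R 4.3.3 (lmFit, eBayes with an intensity trend, Benjamini-Hochberg adjustment over all kept genes). The fits were tested on simulated data with shifts above 1 log2 unit, so that check does not cover the smaller differences of most members. Tables and figures used pandas 2.3.3 and matplotlib 3.10.9. Arrays have no read depth, and their number limits the precision. P-values over arrays of 1 pool measure technical spread.

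Named were called members, the 5 with the largest difference each way in E against I and I1 against I3, the 2 widest per complex and the isoform pairs. From the adjusted p counts without a size limit, members were named after their values were seen. Alternatives were scaling, filter, floor, probe set choice, variance model, size limit, replicate block and left-out arrays or pools.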

Additional observations from a re-analysis of the deposited data

Results flagged for a closer look

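Among the 5 inhibitory pools, 10 of 81 respiratory chain genes had 1 pool whose mean stood apart, with its gap to the nearest other pool above 0.71 of the whole range (Dixon's limit for 5 values). Chance flags about 1 in 20 such groups. Genes with a range under 0.2 log2 units over these pools were not examined, so fewer than 81 were. The share of all kept genes flagged by this rule was not computed, so the count is not read as a result about the members. I1b stood high for Ndufa4 at 11.81 (the other I pools at 10.74 to 11.02), Sdhd at 9.37 (8.73 to 8.88) and Cox4i1 at 9.87 (9.38 to 9.52). I2 stood low for Ndufb2 at 9.05 (9.35 to 9.45). It stood high for Cox6a2 at 4.96 (2.45 to 3.01) and Sdhc at 4.86 (4.47 to 4.54), both under the limit of 5. I3a stood low for Ndufs1 at 8.27 (8.54 to 8.59), with arrays of 8.04 and 8.51. Atp5g1 read 3.14 in I3a (2.71 to 2.79), with arrays of 3.62 and 2.65, so its flag rests on 1 array. Cox5a stood high in I3b at 14.79 (14.57 to 14.63). Cox8b read 2.69 in I1a (2.44 to 2.46), near the floor and with arrays of 2.46 and 2.93.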

How the results depend on the processing

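No member was called in E minus I or I1 minus I3 under any alternative run. Of the named members, 551 repeated values kept their direction and side of the threshold, 8 lost a call and 1 turned, Uqcrfs1 in E minus I, at 0.1416 without E2. Only Cox7c in E1 minus E2, and Cox7c and Atp5mpl in I1a minus I1b, had a call to lose, so all 8 lost calls are theirs. Most other named members differed by well under 1 log2 unit, so it says little that they stayed uncalled. In E1 minus E2 the 1 member called became 0 without the filter, 0 with values under 5 set to 5, 4 at a size limit of 0.5, 22 at the adjusted p alone (added after seeing the data) and 0 to 1 with 1 array left out (0 without array 2 of E1 or of E2). Cox7c then had an adjusted p of 0.0865 without the filter and 0.0671 without array 2 of E2. In I1a minus I1b the 2 called became 1 after quantile normalization, 1 after centring, 1 without the filter, 1 with the mean of probe sets, 9 at 0.5 and 31 at the adjusted p alone. Cox7c had an adjusted p of 0.0675 without the filter there and a difference of -0.96 with the mean of probe sets. In I3a minus I3b the 0 called became 2 at 0.5 and 8 at the adjusted p alone. At the adjusted p alone, 27.7%, 43.3% and 31.7% of all kept genes passed in E1 minus E2, I1a minus I1b and I3a minus I3b. The share of all genes at 0.5 is not given here, so the member counts at 0.5 cannot be set against it. The member median in I1a minus I1b became 0.0155 after quantile normalization, 0.0436 after centring and -0.2517 to -0.1515 with 1 array left out. That in I3a minus I3b became 0.094, 0.106, 0.0215 with a filter at 7, 0 without the filter, -0.0116 with the mean of probe sets and -0.0263 to 0.0399 with 1 array left out. The cause was not tested. The array numbers did not pair the samples (r of deviations -0.117 to 0.212 over 21 pairs of pools, 4 above 0.1); with the replicate block 1, 2 and 0 members were called in the 3 pair comparisons, and 327, 579 and 436 genes in all. Values near the floor limit Cox6a2 and the other genes not kept.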

Other observations

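Ldha, called in E1 minus E2 and in I1a minus I1b, was not called in E minus I (-1.50, adjusted p 0.822) or in I1 minus I3 (-3.28, adjusted p 0.352). Ppargc1a was 0.96 higher in I3a than in I3b (adjusted p 0.000183), below the size limit, besides its call in E1 minus E2. In I3a minus I3b, 2 of 6 kept nuclear regulators were higher and 3 lower at an adjusted p under 0.05, and 5 of 12 kept genes of the tricarboxylic acid cycle were lower, with 9.75% of all kept genes higher and 21.9% lower. These lists were chosen with earlier results of these data known.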
